A study of Mus musculus with 9 samples.

Results

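The type I interferon response genes described here are 36 mouse genes of a list of interferon-stimulated genes with their sensors and transcription factors. They were taken by gene symbol from the 45706 gene rows of a lung RNA sequencing table, and each symbol had 1 row. The rows were picked by name and not by a measured value, but the list was chosen with earlier results of these data known. All 36 reached the level set for testing, 1 TPM or more in 3 or more of the 9 lungs, and 13248 genes in all did. TPM is a transcript abundance corrected for transcript length in which every library adds up to the same total.

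The lungs came from female BALB/c mice, 4 to 6 weeks old, injected in the right flank with 4T1, a line of mammary carcinoma cells from this species. All 3 groups carried this tumour, and tumour-free lungs were not analysed here. The control group was given phosphate-buffered saline (PBS), the second group an antibody against PD1, and the third group nanocapsules of that antibody, each on days 7 and 14, with lungs taken on day 21. The labels write 150 µg per mouse after the nanocapsules, and it is ambiguous whether that amount also applies to the free antibody. Each group had 3 lungs, called PBS 1 to 3, anti-PD1 1 to 3 and nanocapsule 1 to 3 below. The numbers name the lungs within a group. Nothing in the labels ties a lung to a separate animal, so a p-value here reflects only how far these samples vary, which may be technical. Whole lung was sequenced, so fewer cells of a type and less RNA per cell cannot be told apart. Whether the lungs held tumour cells was not given in the sources used here.

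As background, type I interferons are cytokines made after a cell senses foreign or misplaced nucleic acid. They bind the receptor of IFNAR1 and IFNAR2, whose kinases JAK1 and TYK2 activate a complex that holds STAT2 and IRF9 and binds the interferon-stimulated response element (ISRE) before its target genes. The targets encode proteins that degrade or sequester viral RNA, block membrane fusion, conjugate the ubiquitin-like protein ISG15, and sense more nucleic acid, so that several members are both parts and products of the pathway. In the lung the response is known for its role against respiratory viruses, and interferon can also raise the ligand of PD1.

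The core of the ISRE was looked for in the promoters of the members, and part of them held it. Promoter windows of 300 bases, from 250 before to 50 after the start of transcription, were available from RefSeq on GRCm38.p6 for 26 of the 36 members, as 31 windows. Usp18, Mx1, Mx2, Dhx58, Rtp4, Zbp1, Parp14, Parp9, Ifi27l2a and Oas2 had no entry. The ISRE core was searched on both strands as GAAA, any 2 bases and GAAA again, which on the opposite strand reads TTTC, any 2 bases and TTTC. It was found in 14 of the 26 members (53.8%) and in 15 of their 31 windows (48.4%), against 1131 of all 32851 windows of the table (3.44%). The windows of Isg15, Ifit1, Bst2, Oas1a, Oas3, Rsad2 and Trim30a are shown because these genes recur in the results. Capitals mark the bases of ISRE cores on either strand, and each stretch lies before the start of transcription.
Isg15, chr4:156200855-156200916, minus strand, bases -98 to -37 from the start: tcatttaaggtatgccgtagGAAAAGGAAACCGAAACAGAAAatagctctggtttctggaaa
Ifit1, chr19:34640765-34640833, plus strand, bases -124 to -56: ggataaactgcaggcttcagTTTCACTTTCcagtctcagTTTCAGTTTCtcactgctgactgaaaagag
Bst2, chr8:71537567-71537622, minus strand, bases -150 to -95: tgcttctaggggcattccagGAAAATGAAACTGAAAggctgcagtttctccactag
Oas1a, chr5:120907526-120907565, minus strand, bases -40 to -1: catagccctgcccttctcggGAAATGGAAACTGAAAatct
Oas3, chr5:120777705-120777754, minus strand, bases -95 to -46: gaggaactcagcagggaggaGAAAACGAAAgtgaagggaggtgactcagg
Rsad2, chr12:26456543-26456592, minus strand, bases -140 to -91: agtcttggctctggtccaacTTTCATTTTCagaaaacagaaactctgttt
Trim30a, chr7:104465200-104465249, minus strand, bases -56 to -7: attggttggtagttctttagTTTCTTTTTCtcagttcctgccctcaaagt

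Isg15 held 3 overlapping cores in 1 run, Ifit1 held 2 cores apart from each other, and Bst2 and Oas1a each held 2 that overlap. The second motif searched, TTCNNNGAA, is the core of the gamma-activated site, an element known from the interferon gamma response, and reads the same on both strands. It was found in 7 of the 26 members (26.9%) and in 22.6% of their windows, against 8.3% of all windows, and in Bst2 and Ifitm3 its match shared bases with an ISRE core. The 12 members with an entry and no ISRE core in the window were Ifit2, Isg20, Oasl1, Oasl2, Samd9l, Cmpk2, Irf7, Irf9, Herc6, Ifi44, Ifi35 and Xaf1, which says only that these letters are not in this window. A match is a description of the sequence and not a measured binding site.

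**Figure D1:**
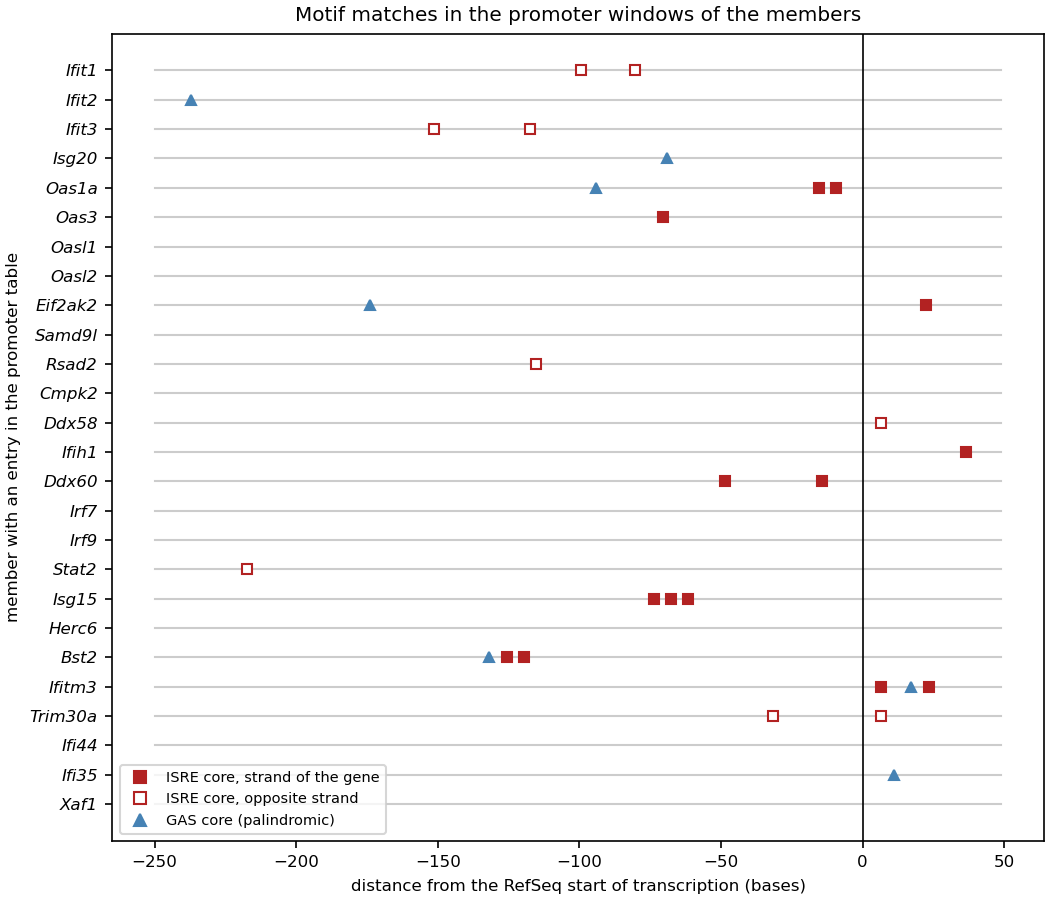
Motif matches in the promoter windows of the 26 members with a RefSeq entry. The horizontal axis is the distance in bases from the start of transcription, squares are ISRE cores (filled on the strand of the gene, open on the opposite strand) and triangles are gamma-activated site cores. Isg15 shows 3 squares side by side, and 12 of the 26 genes have no square.

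The members were well expressed in these lungs. Their mean over the 9 lungs ran from 2.13 TPM for Mx2 to 1682 TPM for Ifitm3, with a median of 28.0 TPM against 11.3 TPM over all tested genes, and 27 of the 36 had a mean of at least 10 TPM. After Ifitm3 came Ifi27l2a, Bst2, Isg15 and Irf7. The interferons themselves were not measurable at this level. Of 20 listed genes for alpha, beta, epsilon, kappa, zeta and lambda interferons, 18 were listed at 0 in all 9 lungs. Ifnb1 stood at 0.125 TPM in PBS 3 and Ifnab at 0.0799 TPM in nanocapsule 1, and both were listed at 0 elsewhere. The depth of the libraries is unknown because TPM keep no read counts, so the smallest level that could have been seen cannot be given.

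Facts of the whole data set bear on these values. Between 12194 and 13407 genes reached 1 TPM in a lung. The neutrophil genes S100a8 and S100a9 took 10.3% to 17.5% of the TPM in a lung, and genes of the mitochondrial genome 2.22% to 5.76%. The lung label was checked with Sftpc, surfactant protein C of alveolar type II cells, which was present in every lung from 343 TPM to 3410.4 TPM. This is 1 gene, and it does not give the share of lung tissue cells in a library. The summed TPM of 10 lung epithelium markers ran from 3163 in PBS 2 to 13311 in anti-PD1 3. That of 10 endothelial markers ran from 46.3 in nanocapsule 2 to 283 in anti-PD1 3. No sequencing batch is labelled.

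Before any comparison of groups, the members differed between the lungs within the PBS and anti-PD1 groups. A member index was computed for each lung as the mean log2(TPM + 1) of the 36 genes minus the mean of the PBS lungs. The PBS lungs had indices of -0.27, 0.01 and 0.26, the anti-PD1 lungs -0.32, -0.0029 and -0.37, and the nanocapsule lungs -0.14, -0.20 and -0.27. PBS 1 was thus low and PBS 3 high among the controls, anti-PD1 2 was high in its group, and the 3 nanocapsule lungs lay close together. As group means, the index was 0.00 ± 0.27 in PBS, -0.23 ± 0.20 in anti-PD1 and -0.20 ± 0.07 in nanocapsule lungs (SD, n = 3 each), and the ranges of the groups overlapped.

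PBS 1, PBS 3 and anti-PD1 2 were the extreme lungs of their groups in most members. The index is the mean of these same genes, so the counts show how widely it was shared and are no separate evidence. PBS 1 was the lowest control lung in 33 of the 36 members, a place it held in 27.6% of all tested genes, and PBS 3 was the highest in 27 of 36 (48.1% of all genes). Anti-PD1 2 was the highest lung of its group in 33 of 36 members, a place it held in 22.5% of all genes, while anti-PD1 1 and 3 were highest in 2 and 1 members (34.7% and 42.8% of all genes). Among nanocapsule lungs the highest place was spread over nanocapsule 1, 2 and 3 in 15, 9 and 12 members (26.6%, 15.8% and 57.5% of all genes). Against the PBS mean, 1, 19 and 34 of the 36 members were higher in PBS 1, 2 and 3, then 3, 17 and 3 in the anti-PD1 lungs and 8, 4 and 3 in the nanocapsule lungs.

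**Figure D2:**
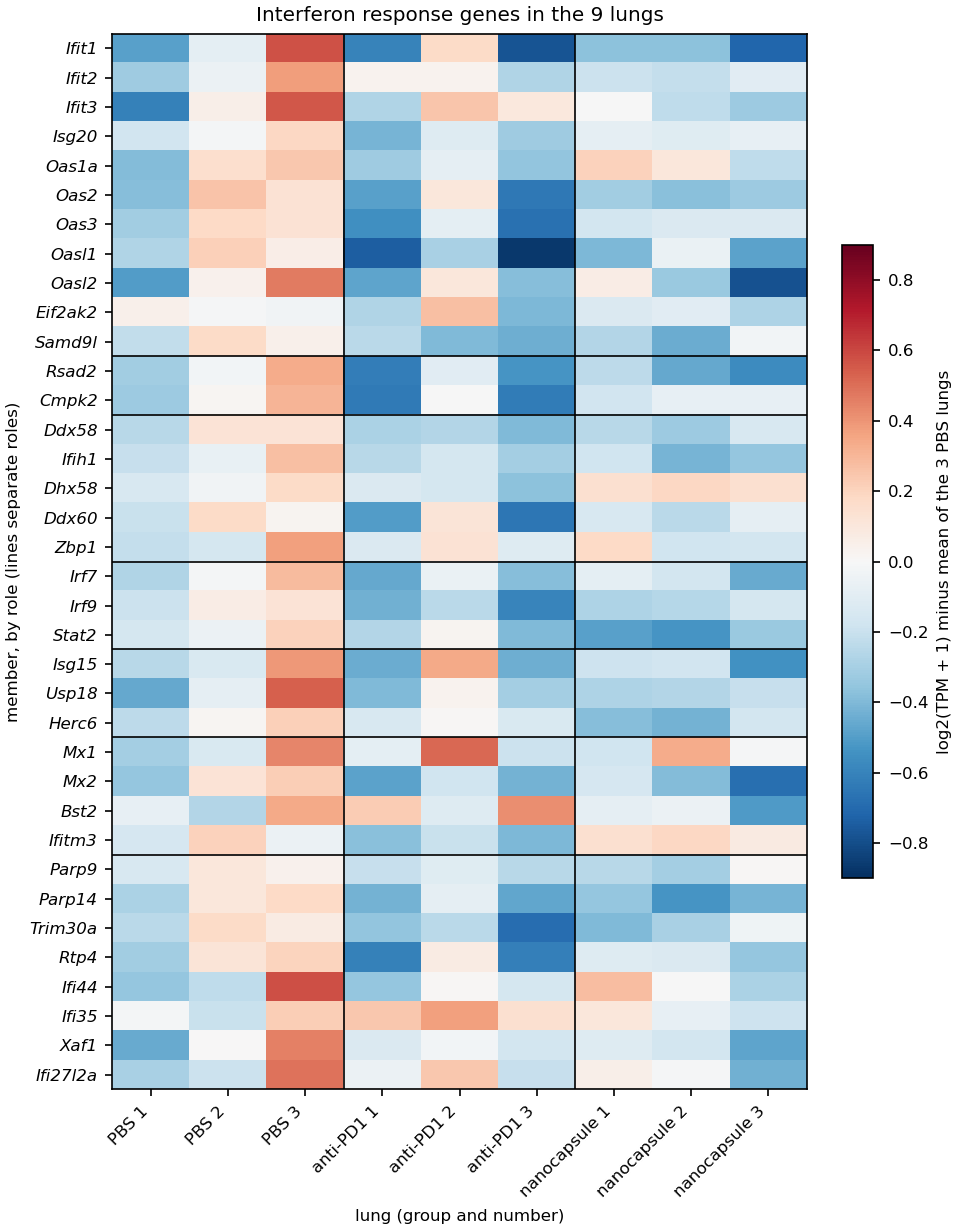
Levels of the 36 members in the 9 lungs as log2(TPM + 1) minus the mean of the PBS lungs, with members in rows by role and lungs in columns. The columns of PBS 3 and anti-PD1 2 are higher than those of the other lungs of their groups in 27 and 33 of the 36 rows, and PBS 1 is the lowest control in 33.

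The spread within a group was for many members as wide as the distance between groups. The ratio of the highest to the lowest PBS lung had a median over members of 1.47, against 1.33 over all tested genes. It was 1.36 in anti-PD1 lungs (1.26 over all genes) and 1.26 in nanocapsule lungs (1.31). The ratio of the highest to the lowest group mean had a median of 1.28 over members and of 1.28 over all genes. In 29 of 36 members the PBS lungs alone spanned more than the 3 group means did, in 21 the anti-PD1 lungs did, and in 15 the nanocapsule lungs. Means of 3 lungs vary less than single lungs, so these counts cannot show whether the groups differ. The same counts were not made over all tested genes. Ifit1, which encodes a protein that binds viral RNA at its 5′ end, spanned 2.20-fold within PBS, 2.06-fold within anti-PD1 and 1.31-fold within nanocapsule lungs.

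This spread was shared by the members. With the group means removed, log2(TPM + 1) over the 9 lungs had a mean Pearson correlation of 0.588 over the 630 pairs of members, and 602 pairs were above 0, against a mean of 0.132 over all pairs of tested genes. The points are the same 9 libraries for every pair, so the pairs are not independent, and the correlations are a description. Ifit1 (0.97), Rsad2 (0.96) and Irf7 (0.93) followed the mean of the other members most closely within groups. Bst2 (0.04), Samd9l (0.21) and Parp9 (0.39) followed it least.

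In anti-PD1 lungs most members had lower means than in PBS lungs, but none passed the test. The comparison asks how the lung differs after free antibody. Of the 36 members, 32 had a lower and 4 a higher mean of log2(TPM + 1), the scale of all counts of means below, where 43.1% of all tested genes had a lower and 56.9% a higher mean. The median log2 difference of the members was -0.25, against 0.04 over all tested genes. At an adjusted p under 0.05 (limma, adjusted over all 13248 genes) no member was called, and 1 gene was called in all (0.00755%). The lowest adjusted p of a member was 0.211. At an unadjusted p under 0.05 there were 8 lower members (8.06% of all genes) and 0 higher (8.48% of all genes).

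The 8 members were Oasl1, Oas3, Trim30a, Irf9, Samd9l, Ifitm3, Ddx58 and Isg20. Of all 36 members, 6 had the 3 anti-PD1 lungs all below the 3 PBS lungs, beside 13.4% of all tested genes. These 6 are the 8 without Oas3 and Isg20. The 8 were picked by p in this same comparison, so their separation is no further evidence. The 4 members with a higher mean log2(TPM + 1) were Ifi35, Bst2, Mx1 and Ifit3, of which Ifit3 had a lower mean in TPM (5.54 against 5.70). The count of 8 depended on the lungs used. Without PBS 1 it was 17 and without anti-PD1 2 it was 18, while it was 2 without PBS 2, 4 without PBS 3, 5 without anti-PD1 1 and 2 without anti-PD1 3. The median log2 difference stayed below 0 in each case, between -0.42 without PBS 1 and -0.14 without PBS 3. When PBS 3 and anti-PD1 2, the highest lungs of their groups, were both left out, an alternative added after seeing the data, 27 members had a lower mean, the median was -0.26 and no gene was called.

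In nanocapsule lungs most members also had lower means than in PBS lungs, and again none passed the test. This comparison uses the same PBS lungs as the one above, so the 2 are not independent. Of the 36 members 32 had a lower mean and 4 a higher mean, beside 71.2% of all tested genes with a lower mean. The median log2 difference was -0.22 for members and -0.11 for all tested genes. The limma fit called 0 members and 1 gene in all (0.00755%), and the lowest adjusted p of a member was 0.365. At an unadjusted p under 0.05 there were 2 lower members, Stat2 and Parp14 (8.92% of all genes were lower at this level), and 0 higher (1.22%).

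The 3 nanocapsule lungs were all below the 3 PBS lungs in Eif2ak2, Stat2 and Parp14, beside 11.9% of all genes, and all above them in 0 members, beside 2.4%. The general shift of all genes in this comparison depended on the scaling. With median-of-ratios scaling, which sets the middle gene of each library to a common level, the median of all genes moved from -0.11 to 0.00098, that of the members from -0.22 to -0.10, and 27 of 36 members had a lower mean. The number of members lower at an unadjusted p under 0.05 depended on the lungs used. The count was 17 without PBS 1, 1 without PBS 2 or PBS 3, and 5 without nanocapsule 1 or nanocapsule 3. Without PBS 3 the number of members with a lower mean was 23 and their median -0.10, against -0.068 over all genes. The distance between members and all genes was also small without nanocapsule 3 (-0.164 and -0.158) and without PBS 2 (-0.19 and -0.15), and with lungs weighted by their fit the members lay above all genes (-0.031 and -0.14).

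Between nanocapsule and anti-PD1 lungs no member passed the test, and the direction of the members depended on the scaling. Of the 36 members 19 had a lower mean in nanocapsule lungs and 17 a higher mean, beside 70.8% of all tested genes with a lower mean. With median-of-ratios scaling the split was 5 lower and 31 higher, because the median of all genes moved from -0.17 to -0.0019 and that of the members from -0.01 to 0.18. The limma fit called 0 members, beside 14 genes in all (0.106%), 5 of them lower (0.0377%) and 9 higher (0.0679%) in nanocapsule lungs. At an unadjusted p under 0.05, Ifi35 was lower (21.0% of all genes were) and Ifitm3 and Dhx58 were higher (6.69% of all genes were).

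All nanocapsule lungs were above all anti-PD1 lungs in Isg20, Dhx58 and Ifitm3, beside 8.73% of all genes, and all below them in Herc6 and Ifi35, beside 24.6%. Without anti-PD1 2, only 8 members had a lower mean in nanocapsule lungs, the median was 0.15, and 9 members were higher at an unadjusted p under 0.05. The comparisons share their groups in pairs, so the values of a gene in the 3 comparisons are not independent of each other.

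**Figure D3:**
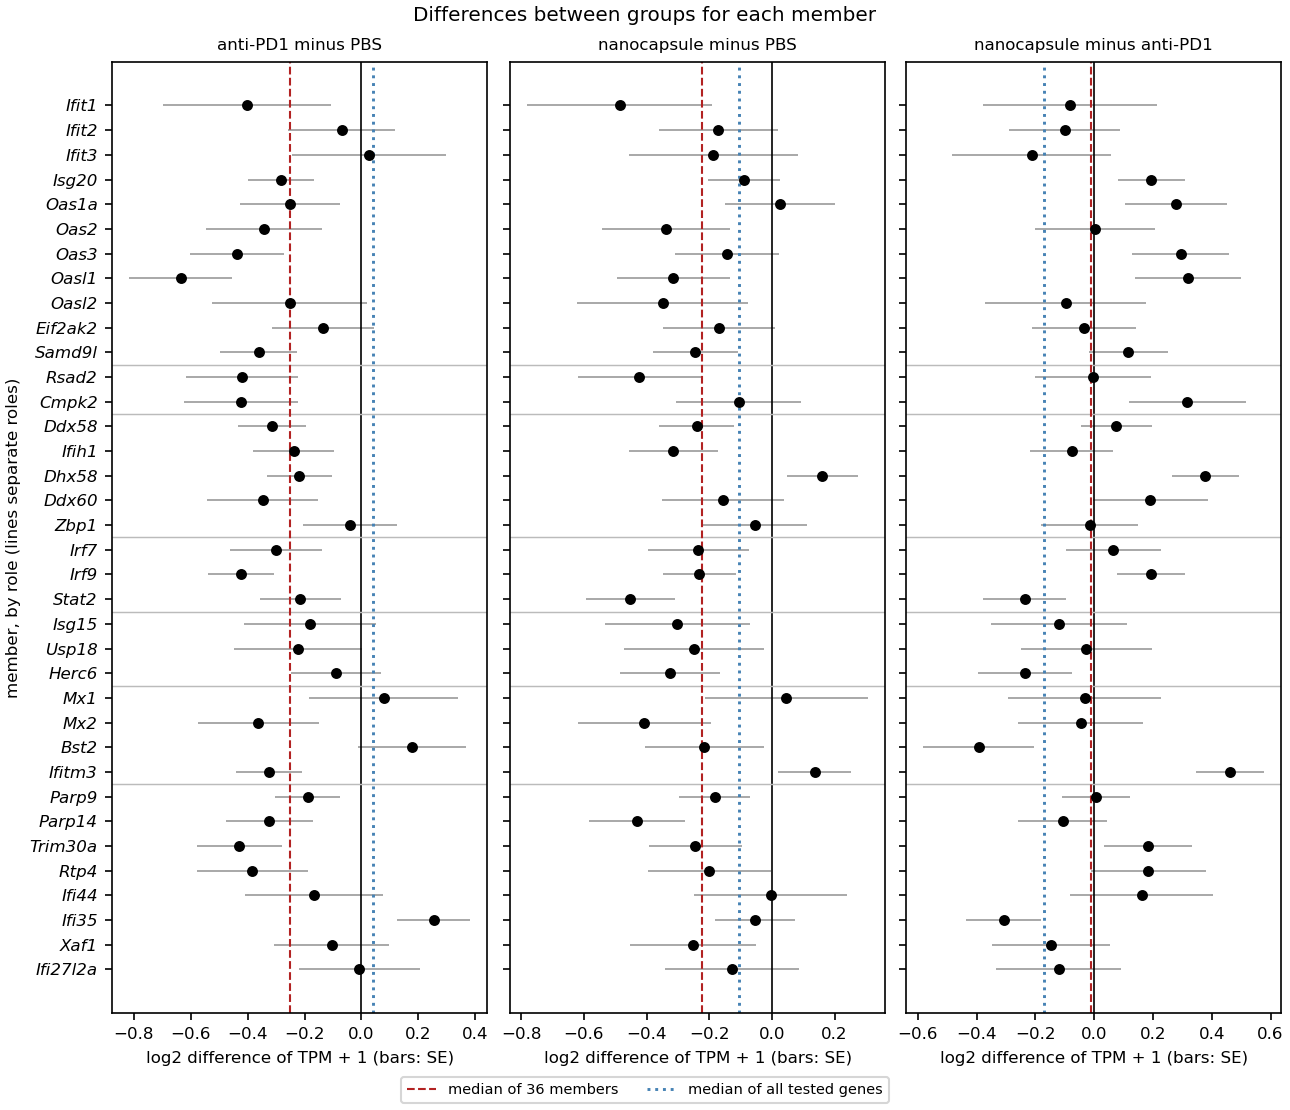
Log2 difference of TPM + 1 for each of the 36 members in the 3 comparisons, with bars of 1 SE from the limma fit, members in rows by role, and vertical lines at the medians of the members (dashed) and of all tested genes (dotted). Against PBS the dots lie mostly below 0 in both treated groups (32 of 36 in each), and between nanocapsule and anti-PD1 lungs they fall on both sides (19 lower, 17 higher). Of all tested genes 43.1% were lower in anti-PD1 and 71.2% in nanocapsule than in PBS lungs, and 70.8% in nanocapsule than in anti-PD1 lungs.

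Of the transcription factors, Irf9 and Stat2 carry the signal from the receptor to the target genes and Irf7 acts behind the nucleic acid sensors. All 3 had lower means in both treated groups than in PBS lungs, beside 43.1% (anti-PD1) and 71.2% (nanocapsule) of all tested genes. Irf9, the DNA-binding part of the complex with STAT2 (chr14:55603571-55610030), was at 60.3, 72.2 and 75.2 TPM in PBS, 50.8, 58.0 and 45.3 TPM in anti-PD1 and 56.8, 57.5 and 61.5 TPM in nanocapsule lungs. Every anti-PD1 lung was below every PBS lung, while nanocapsule 3 was above PBS 1. The log2 difference of Irf9 was -0.42 (SE 0.12, adjusted p = 0.211 by limma) for anti-PD1 against PBS and -0.23 (SE 0.12, adjusted p = 0.518) for nanocapsules against PBS. Irf7, the factor that amplifies interferon production, was at 100.1, 119 and 148 TPM in PBS, 87.8, 116 and 92.5 TPM in anti-PD1 and 114, 108 and 87.9 TPM in nanocapsule lungs. PBS 3 was its highest lung, and the groups overlapped.

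Stat2 was chosen after its values were seen, as were all members given with values below that are not among the 2 most abundant of their role or the 1 with the smallest p. It stood at 17.4, 18.8 and 22.7 TPM in PBS, 16.1, 19.8 and 14.6 TPM in anti-PD1 and 13.6, 13.2 and 15.3 TPM in nanocapsule lungs. Its 3 nanocapsule lungs were below all PBS lungs, and the log2 difference was -0.45 (SE 0.14, adjusted p = 0.365 by limma).

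The oligoadenylate synthetases make the messenger that activates RNase L once they bind double-stranded RNA, and their relative Oasl1 lacks that activity. Oasl1 (chr5:114923240-114937915), known to restrain the translation of Irf7, was at 49.7, 69.9 and 62.8 TPM in PBS, 35.6, 49.1 and 32.5 TPM in anti-PD1 and 45.2, 57.8 and 42.9 TPM in nanocapsule lungs. All anti-PD1 lungs were below all PBS lungs, narrowly for anti-PD1 2 against PBS 1. Its log2 difference of -0.63 (SE 0.18, adjusted p = 0.211 by limma) was the lowest of any member in this comparison. Oas3, the synthetase of the longest chains (chr5:120753098-120777661), was at 60.7, 85.6 and 82.8 TPM in PBS, 51.2, 71.1 and 47.1 TPM in anti-PD1 and 67.4, 68.8 and 68.7 TPM in nanocapsule lungs. The nanocapsule lungs differed from each other by 1.02-fold, whereas the PBS lungs spanned 1.41-fold and the anti-PD1 lungs 1.51-fold.

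Oas3 differed between anti-PD1 and PBS lungs by -0.44 on the log2 scale (SE 0.17, adjusted p = 0.251 by limma), with anti-PD1 2 above PBS 1. Oas1a was at 50.5, 74.3 and 78.8 TPM in PBS, 53.1, 63.0 and 51.9 TPM in anti-PD1 and 77.2, 71.4 and 56.8 TPM in nanocapsule lungs, so that its PBS and nanocapsule means were close (67.9 ± 15.2 and 68.5 ± 10.5 TPM, SD, n = 3). Mouse Oas1a has near-identical neighbours, among which reads can be divided, and its level is uncertain for that reason. Oas2 and Oasl2 had lower means in both treated groups, with groups that overlapped.

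The Ifit proteins bind viral RNA ends, and Ifit3 and Ifit1 were the members with the widest spread among PBS lungs (2.64-fold and 2.20-fold). Ifit1 was at 9.68, 13.1 and 21.3 TPM in PBS, 8.89, 15.9 and 7.73 TPM in anti-PD1 and 10.6, 10.6 and 8.13 TPM in nanocapsule lungs. PBS 3 and anti-PD1 2 were the highest, and the log2 differences of -0.40 for anti-PD1 and -0.49 for nanocapsules against PBS came with an SE of 0.30 each. Ifit3, which shares reads with a near copy, was at 3.16, 5.59 and 8.34 TPM in the PBS lungs alone and had log2 differences of 0.03 and -0.19 against PBS. Isg20, an exonuclease of RNA, was at 41.3, 46.2 and 53.3 TPM in PBS, 34.8, 43.1 and 37.2 TPM in anti-PD1 and 44.0, 43.2 and 44.4 TPM in nanocapsule lungs. Eif2ak2, the kinase PKR that halts translation, and Samd9l, which also restricts translation, complete this role. In each treated group 10 of its 11 members had lower means than in PBS lungs. Over all tested genes 43.1% had a lower mean in anti-PD1 and 71.2% in nanocapsule lungs. At an unadjusted p under 0.05, 4 of the 11 were lower in anti-PD1 lungs (8.06% of all genes) and 0 in nanocapsule lungs (8.92%).

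Rsad2 and Cmpk2 are neighbours on chromosome 12, and together they make a chain-terminating nucleotide that stops viral polymerases. Rsad2 was at 8.50, 10.6 and 13.9 TPM in PBS, 6.64, 9.96 and 7.17 TPM in anti-PD1 and 9.01, 7.54 and 6.94 TPM in nanocapsule lungs. Cmpk2 was at 12.0, 15.5 and 19.1 TPM in PBS, 9.48, 15.2 and 9.49 TPM in anti-PD1 and 13.4, 14.4 and 14.5 TPM in nanocapsule lungs. Both had PBS 3 and anti-PD1 2 as the highest lungs of their groups and a log2 difference of -0.42 (SE 0.20) for anti-PD1 against PBS. Against PBS, nanocapsule lungs differed by -0.42 in Rsad2 and by -0.11 in Cmpk2 (adjusted p = 0.491 and 0.873 by limma).

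Of the nucleic acid sensors, the RIG-I-like family binds foreign RNA in the cytoplasm. Its 3 genes had lower means in anti-PD1 than in PBS lungs, beside 43.1% of all tested genes. In nanocapsule lungs Ddx58 and Ifih1 had a lower and Dhx58 a higher mean than in PBS lungs, where 71.2% of all genes were lower. Ddx58, which encodes RIG-I, was at 27.8, 36.3 and 36.3 TPM in PBS, 27.1, 27.5 and 25.0 TPM in anti-PD1 and 27.8, 26.3 and 30.0 TPM in nanocapsule lungs. Its anti-PD1 lungs were all below the PBS lungs, by a small margin to PBS 1, with a log2 difference of -0.32 (SE 0.12, adjusted p = 0.249 by limma). Dhx58, which encodes LGP2, the relative that lacks the signalling domains and tunes the others (chr11:100694884-100704271), was at 18.6, 20.1 and 23.3 TPM in PBS, 18.8, 18.3 and 15.7 TPM in anti-PD1 and 22.9, 23.6 and 22.9 TPM in nanocapsule lungs. All nanocapsule lungs were above all anti-PD1 lungs, and PBS lungs overlapped both.

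The log2 difference of Dhx58 between nanocapsule and anti-PD1 lungs was 0.38 (SE 0.11, adjusted p = 0.0934 by limma). It passed 0.05 in 1 of 20 alternative settings, where lungs were weighted by their fit (0.34, adjusted p = 0.0379), within a range of adjusted p from 0.0379 to 0.284. Ifih1, which encodes MDA5, the third of the family, had means of 13.6 ± 2.57 TPM in PBS, 11.3 ± 0.664 TPM in anti-PD1 and 10.7 ± 1.02 TPM in nanocapsule lungs (SD, n = 3). Zbp1, a sensor of left-handed nucleic acid that can start necroptosis, was at 44.0, 45.8 and 66.3 TPM in PBS, 46.6, 55.9 and 47.2 TPM in anti-PD1 and 58.1, 45.1 and 45.5 TPM in nanocapsule lungs. Each group thus had 1 high lung for Zbp1, and the group means of 52.0, 49.9 and 49.5 TPM were close.

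The ISG15 system is a ubiquitin-like tag, Isg15, its ligase Herc6 and Usp18, which removes the tag and also shuts the receptor down. Isg15 (chr4:156199424-156200818) was at 101, 109.9 and 159 TPM in PBS, 88.3, 154 and 88.8 TPM in anti-PD1 and 106, 107 and 82.5 TPM in nanocapsule lungs. PBS 3 and anti-PD1 2 stood apart, and the means of 123 ± 31.0, 110.3 ± 37.5 and 98.5 ± 13.9 TPM (SD, n = 3) lay within the spread between lungs. Usp18 was at 8.93, 11.9 and 18.8 TPM in PBS, 9.38, 12.9 and 10.1 TPM in anti-PD1 and 10.2, 10.4 and 10.8 TPM in nanocapsule lungs. It spanned 2.11-fold within PBS and 1.06-fold within nanocapsule lungs. Its log2 difference between nanocapsule and PBS lungs was -0.25 (SE 0.22) and turned to 0.020 without PBS 3. Herc6 was at 3.95, 4.89 and 5.76 TPM in PBS, 4.27, 4.87 and 4.30 TPM in anti-PD1 and 3.46, 3.34 and 4.19 TPM in nanocapsule lungs, where all nanocapsule lungs were below all anti-PD1 lungs.

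Ifitm3, which blocks the fusion of viruses with endosomal membranes, was the most abundant member and had the smallest p of any member between the treated groups. It is at chr7:141009586-141010770. It was at 1561, 2005 and 1672 TPM in PBS, 1338, 1514 and 1314 TPM in anti-PD1 and 1921, 1973 and 1836 TPM in nanocapsule lungs. The anti-PD1 lungs were below all other lungs, and PBS and nanocapsule lungs overlapped. The log2 difference was 0.46 (SE 0.12, adjusted p = 0.0745 by limma) for nanocapsules against anti-PD1 and -0.32 (SE 0.12, adjusted p = 0.235) for anti-PD1 against PBS.

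Ifitm3 passed 0.05 between the treated groups in 4 of 20 alternative settings. Among them were lung weights (0.51, adjusted p = 0.0121), a fit of these groups alone (adjusted p = 0.0449) and the omission of PBS 2 (adjusted p = 0.0275), and its adjusted p ranged from 0.0121 to 0.234 over the settings. Its close relatives Ifitm1 and Ifitm2, which are no members and may share reads with it, had log2 differences of 0.48 (SE 0.17, adjusted p = 0.116) and 0.44 (SE 0.15, adjusted p = 0.110) in the same direction. Neutrophil markers also stood lower in anti-PD1 lungs than in both other groups: the summed TPM of 12 such genes was 113273 to 130081 in anti-PD1, 135006 to 187005 in PBS and 172208 to 195860 in nanocapsule lungs. Their part in the values of the Ifitm genes was not tested.

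Bst2, or tetherin, holds budding virus at the cell surface and was the member least tied to the rest. It was at 108, 94.6 and 144 TPM in PBS, 134, 105 and 153 TPM in anti-PD1 and 107, 109.7 and 79.8 TPM in nanocapsule lungs. Anti-PD1 2, the highest of its group for 33 members, was the lowest of its group in Bst2 and in no other member, where it was the lowest in 54.6% of all tested genes. The log2 difference between nanocapsule and anti-PD1 lungs was -0.39 (SE 0.19, adjusted p = 0.204 by limma). The GTPase genes Mx1 and Mx2 were the least abundant members with group means between 1.80 and 2.73 TPM, and in most inbred strains both carry mutations that inactivate the protein. Mx1 was at 1.73, 2.07 and 3.58 TPM in PBS, 2.17, 3.83 and 1.95 TPM in anti-PD1 and 1.97, 3.25 and 2.34 TPM in nanocapsule lungs, so its means were level within the spread.

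The 8 other interferon-stimulated members include 2 enzymes that attach ADP-ribose or read it, Parp9 and Parp14. Trim30a, a ubiquitin ligase family member that dampens inflammatory signalling, was at 83.0, 111 and 104 TPM in PBS, 76.7, 82.9 and 60.9 TPM in anti-PD1 and 74.5, 80.3 and 95.7 TPM in nanocapsule lungs. Its anti-PD1 lungs were all below the PBS lungs, with 82.9 TPM in anti-PD1 2 just under 83.0 TPM in PBS 1, and the log2 difference was -0.43 (SE 0.15, adjusted p = 0.232 by limma). Other genes of its family lie beside it, and reads may be shared among them. Ifi27l2a, a small mitochondrial protein often used as a marker of interferon exposure, was at 475, 509 and 819 TPM in PBS, 562, 689.8 and 504 TPM in anti-PD1 and 605, 580.2 and 433 TPM in nanocapsule lungs. PBS 3 and anti-PD1 2 were again the highest of their groups.

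Parp14 was at 16.3, 21.6 and 22.8 TPM in PBS, 14.7, 18.9 and 14.2 TPM in anti-PD1 and 15.5, 13.5 and 14.7 TPM in nanocapsule lungs, with a log2 difference of -0.43 (SE 0.15, adjusted p = 0.423 by limma) for nanocapsules against PBS. Unlike most members, Ifi35 had a higher mean in anti-PD1 than in PBS lungs. It was at 37.5, 33.0 and 44.6 TPM in PBS, 45.3, 49.6 and 42.2 TPM in anti-PD1 and 41.0, 36.1 and 33.3 TPM in nanocapsule lungs. The nanocapsule lungs were all below the anti-PD1 lungs, with a log2 difference of -0.31 (SE 0.13, adjusted p = 0.157), and this was the member furthest above PBS in anti-PD1 lungs (0.25, SE 0.13). Rtp4, a chaperone of membrane receptors, Ifi44 and Xaf1, which binds an inhibitor of apoptosis, had groups that overlapped in every comparison.

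**Figure D4:**
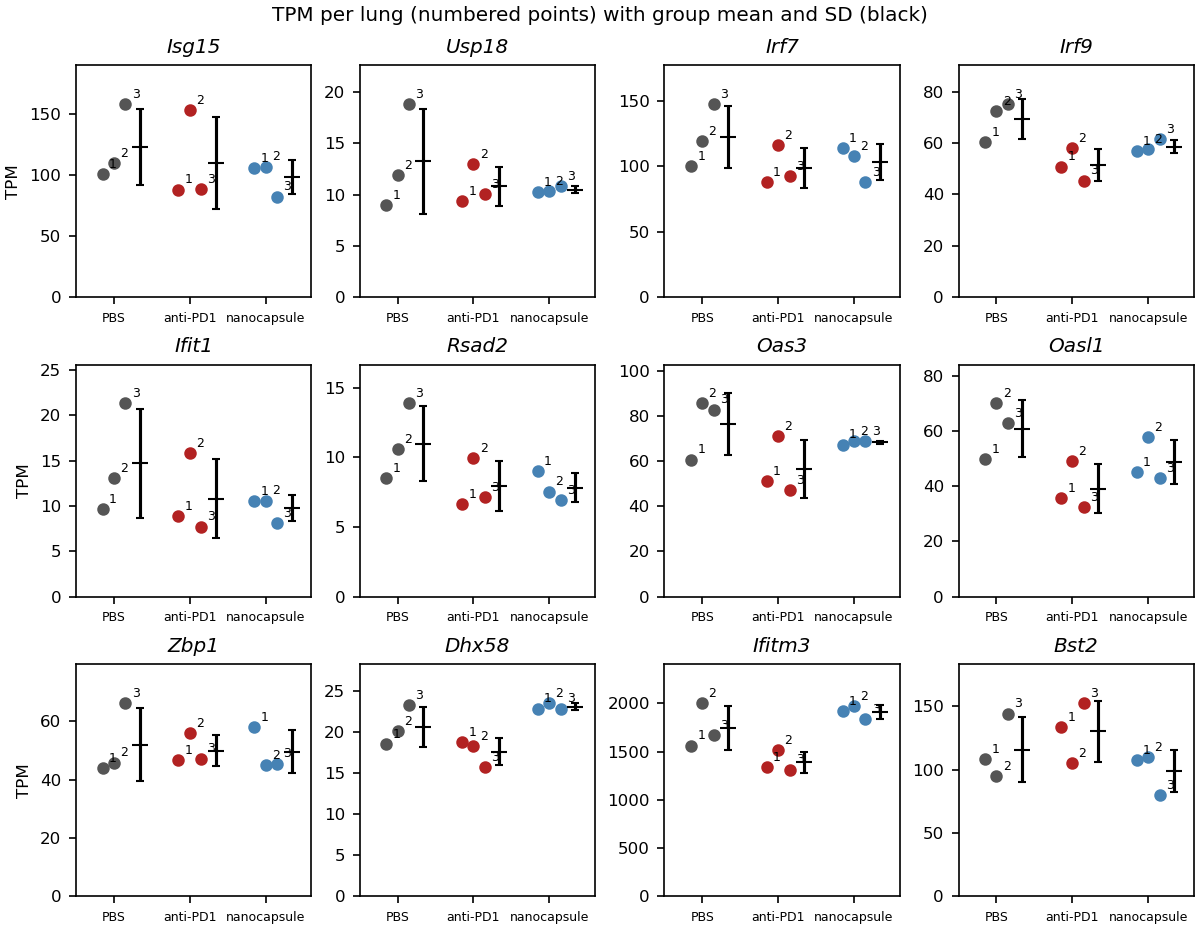
TPM of 12 members in each lung (points numbered as the lungs) with group mean and SD in black, for PBS, anti-PD1 and nanocapsule lungs. PBS 3 and anti-PD1 2 stand above the rest of their groups in Isg15 and Ifit1, the anti-PD1 lungs lie lowest in Ifitm3, and the nanocapsule lungs lie above the anti-PD1 lungs in Dhx58.

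Genes upstream of and around the members, taken from lists of the pathway, gave no call in any comparison. Of 8 receptor and kinase genes 3 were lower in anti-PD1 than in PBS lungs at an unadjusted p under 0.05 (8.06% of all tested genes were), 3 were lower in nanocapsule than in PBS lungs (8.92%), and 2 were higher in nanocapsule than in anti-PD1 lungs (6.69%). Ifnlr1, the receptor of lambda interferons, was at 9.89, 13.9 and 11.4 TPM in PBS, 8.05, 8.09 and 6.09 TPM in anti-PD1 and 9.67, 11.9 and 12.4 TPM in nanocapsule lungs. The anti-PD1 lungs were below all others, with log2 differences of -0.60 (SE 0.16, adjusted p = 0.211 by limma) against PBS and 0.55 (SE 0.16, adjusted p = 0.0914) for nanocapsules against anti-PD1. Ifnar2, the high-affinity chain of the type I receptor, differed by 0.29 (SE 0.10, adjusted p = 0.111) between nanocapsule and anti-PD1 lungs. Stat3, the most abundant of this list, differed by -0.34 in anti-PD1 and -0.28 in nanocapsule lungs against PBS (SE 0.12 each, adjusted p = 0.235 and 0.477).

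Of 19 sensors, adaptors and factors that lead to interferon production, 1 was lower at an unadjusted p under 0.05 in anti-PD1 lungs (8.06% of all genes were) and 4 in nanocapsule lungs (8.92%) against PBS. Between the treated groups 3 were lower and 2 higher with nanocapsules, beside 21.0% and 6.69% of all genes. Myd88, the adaptor of most Toll-like receptors, was at 254, 315 and 267 TPM in PBS, 211, 264 and 209 TPM in anti-PD1 and 279, 299 and 325 TPM in nanocapsule lungs. All nanocapsule lungs were above all anti-PD1 lungs (0.40, SE 0.12, adjusted p = 0.0921 by limma). Irf3, the factor that first turns on Ifnb1, was at 52.8, 53.7 and 60.1 TPM in PBS, 58.4, 53.2 and 57.3 TPM in anti-PD1 and 45.5, 42.0 and 47.9 TPM in nanocapsule lungs, below every lung of the other groups. Its log2 differences were -0.29 (SE 0.09, adjusted p = 0.365) against PBS and -0.31 (SE 0.09, adjusted p = 0.0912) against anti-PD1. Unc93b1, the chaperone of the endosomal Toll-like receptors, differed by 0.18 (SE 0.08, adjusted p = 0.174) between nanocapsule and anti-PD1 lungs.

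Of 12 negative regulators, 3 were lower in anti-PD1 than in PBS lungs at an unadjusted p under 0.05 (8.06% of all genes) and 0 in nanocapsule lungs (8.92%). Between the treated groups 2 were lower and 1 higher with nanocapsules, beside 21.0% and 6.69% of all genes. Socs3, an inhibitor of cytokine receptors, differed by -0.46 (SE 0.19, adjusted p = 0.278 by limma) between anti-PD1 and PBS lungs. Samhd1, which destroys nucleotides, and Rnaseh2a, which removes RNA from DNA hybrids, differed by 0.29 (SE 0.11, adjusted p = 0.142) and -0.76 (SE 0.26, adjusted p = 0.111) between nanocapsule and anti-PD1 lungs.

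A further list held 60 interferon-stimulated genes that are no members, of which 54 were in the table and 52 were tested. Against PBS, 36 of the 52 had a lower mean in anti-PD1 lungs (median -0.09), beside 43.1% of all genes and their median of 0.04. In nanocapsule lungs 41 had a lower mean (median -0.15), beside 71.2% of all genes and their median of -0.11. At an unadjusted p under 0.05, 8 were lower and 2 higher in anti-PD1 lungs (8.06% and 8.48% of all genes) and 7 lower and 0 higher in nanocapsule lungs (8.92% and 1.22%). Lgals3bp, a secreted galectin ligand, was at 57.7, 39.8 and 56.7 TPM in PBS, 69.3, 62.8 and 69.7 TPM in anti-PD1 and 44.5, 38.1 and 45.7 TPM in nanocapsule lungs. The anti-PD1 lungs were above all others, and the difference between nanocapsule and anti-PD1 lungs was -0.65 (SE 0.14, adjusted p = 0.0665 by limma). ISRE cores were in the windows of 25 of the 51 genes of this list that had an entry (49.0%), near the share of the members. The core of the gamma-activated site was in 3 of the 51 (5.88%), below the 26.9% of the members and the 9.55% of all genes with a window.

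Markers of cell types moved between the lungs as well, and their part in the values of the members was not tested. Plasmacytoid dendritic cells are known as strong producers of type I interferon. The index of 9 of their 10 markers was -0.14, -0.33 and 0.47 in PBS, 0.13, -0.30 and 0.27 in anti-PD1 and -0.46, -0.61 and -0.36 in nanocapsule lungs. The summed TPM of the 10 genes was 83.6 to 136, 85.8 to 122 and 66.7 to 87.2 in these groups, and Cd300c was listed at 0 in 5 of the 9 lungs. T cell markers (10 of 10 tested) had indices of -0.32, -0.44 and 0.75 in PBS, 0.63, -0.49 and 1.27 in anti-PD1 and -0.46, -0.52 and -0.65 in nanocapsule lungs. PBS 3, the highest PBS lung in the interferon index, was thus also the highest PBS lung in both marker lists. Anti-PD1 2 was the lowest anti-PD1 lung in both. It was the highest of its group in the interferon index, but at -0.0029 it was near the PBS mean.

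Of 12 neutrophil markers, all had lower means in anti-PD1 than in PBS lungs, with indices of -0.11, 0.27 and -0.16 in PBS, -0.53, -0.60 and -0.67 in anti-PD1 and 0.02, 0.26 and 0.23 in nanocapsule lungs. Over all tested genes 43.1% had a lower mean in this comparison. At an unadjusted p under 0.05, 9 of the 12 were lower, beside 8.06% of all genes. Between the treated groups all 12 had higher means with nanocapsules, beside 29.2% of all genes. Of these 12, 11 were higher there at an unadjusted p under 0.05 (6.69% of all genes), and 1 was called (0.106%). Of 10 B cell markers, all had lower means in nanocapsule than in PBS lungs, with indices of -0.01, -0.45 and 0.46 in PBS, 0.35, -0.52 and -0.14 in anti-PD1 and -0.75, -1.15 and -1.02 in nanocapsule lungs. Over all tested genes 71.2% had a lower mean in this comparison. At an unadjusted p under 0.05, 9 of the 10 were lower, beside 8.92% of all genes. All 10 endothelial markers had higher means in anti-PD1 than in PBS lungs (median log2 difference 1.19), beside 56.9% of all tested genes. Each of the 10 was higher at an unadjusted p under 0.05, beside 8.48% of all genes. Between the treated groups all 10 had lower means with nanocapsules (70.8% of all genes), 9 of them at an unadjusted p under 0.05 (21.0%). The endothelial indices were 0.22, -0.70 and 0.48 in PBS, 1.01, 0.93 and 1.72 in anti-PD1 and 0.51, -0.58 and -0.032 in nanocapsule lungs, and the summed TPM of these markers 46.3 to 113, 154 to 283 and 46.3 to 108 in the same order of groups. All 10 alveolar macrophage markers also had higher means in anti-PD1 than in PBS lungs (median 0.56), 4 of them at an unadjusted p under 0.05 (8.48% of all genes), with a summed TPM of 1563 to 2477 in PBS, 2529 to 3109 in anti-PD1 and 1422 to 2338 in nanocapsule lungs. Of 10 markers of lung epithelium 9 had a higher mean in anti-PD1 than in PBS lungs (median 0.80), 5 at an unadjusted p under 0.05 (8.48% of all genes). Monocyte markers, 10 genes, stayed between -0.05 and 0.40 in all lungs, with the highest value in nanocapsule 3.

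**Figure D5:**
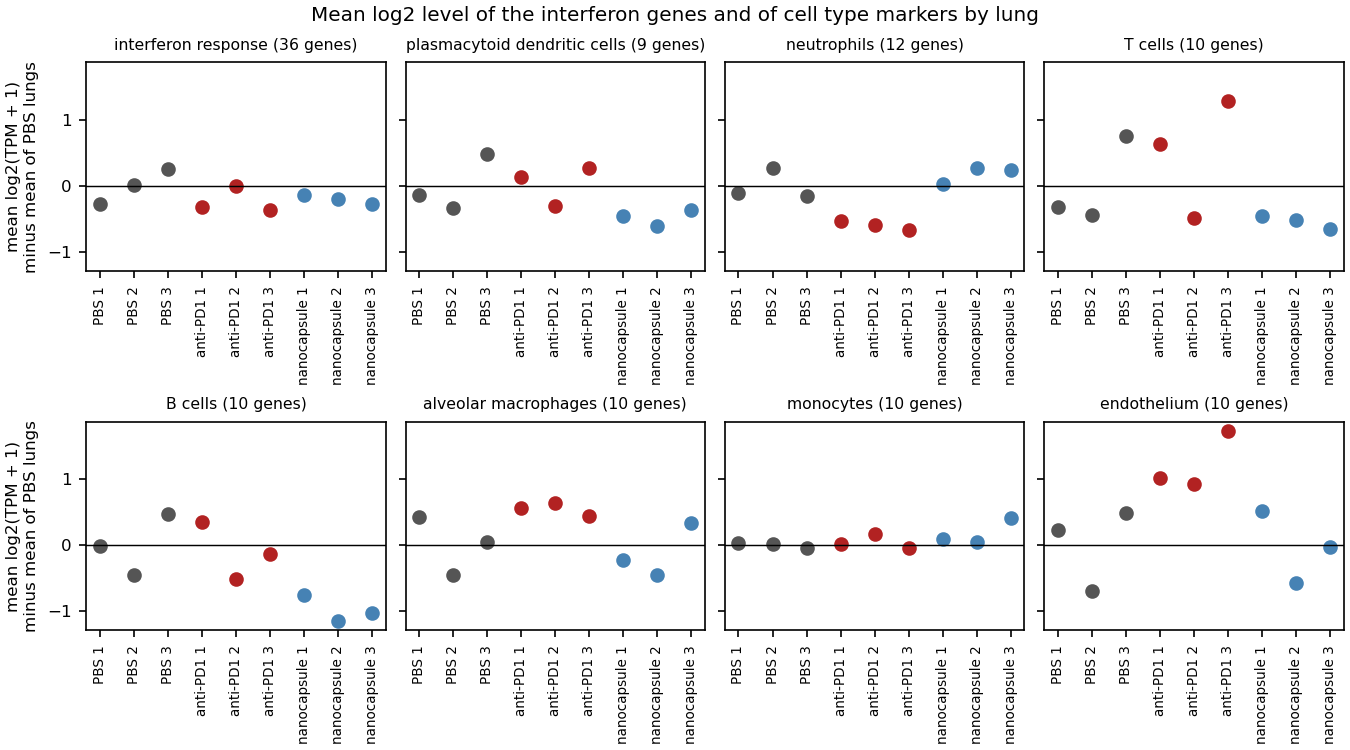
Mean log2(TPM + 1) minus the mean of the PBS lungs in each of the 9 lungs, for the 36 interferon response genes and for 7 lists of cell type markers. Interferon genes are high in PBS 3 and near the PBS mean in anti-PD1 2, whereas T cell markers are high in PBS 3 (0.75) and low in anti-PD1 2 (-0.49).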

How the data were processed

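Poly(A) RNA of 9 lungs, 3 a group, was sequenced. The values are gene-level TPM as deposited by the authors in 1 table, and each column sums to the same total. The table's name points to salmon, and the submitters' processing notes name the build GRCm38. For versions, roles and filters, the sources used here say nothing. The unit holds no counts, so depth is unknown and no count model was used.

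The 13248 genes that reached 1 TPM in 3 or more libraries were fitted on log2(TPM + 1) with limma 3.58.1 in R 4.3.3. The fit used an intensity trend, and the 3 groups shared 1 estimate of the spread with 6 residual degrees of freedom. Two-sided tests were used, with Benjamini-Hochberg adjustment within each comparison over all tested genes and a call at an adjusted p under 0.05. Fold changes on this scale understate those of low genes. The fit was also run on simulated data, with noise drawn separately for each gene and lung. That noise lacks the spread that genes share here, so the run could not show how the fit handles it. Positions come from GENCODE M21 on GRCm38 and promoter windows from RefSeq on GRCm38.p6, searched for exact motif letters. No test was made over the members as a list.

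The members, the pathway and marker lists, the motifs and the settings were chosen with earlier results of these data known. Named in full by rule were, for each role, the 2 members with the highest mean TPM and the 1 with the smallest unadjusted p, and any called member. Of each pathway list the rule named the called genes, and otherwise the 2 most abundant and the 1 with the smallest p. The 5 genes outside the lists most correlated with the member index were named too. Results were recomputed with other pseudocounts, filters, scalings, variance models, samples in the fit, a replicate block and each library left out.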

Additional observations from a re-analysis of the deposited data

How the results depend on the processing

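Each result was recomputed under 20 alternatives, 1 of them (PBS 3 and anti-PD1 2 left out together) chosen after seeing the data. No member was called against PBS in any of them. The median log2 difference of the members stayed below 0 against PBS in all of them, at its nearest -0.031 for nanocapsules with array weights, and all medians moved by less than the pooled SD of the member index within groups. Of 62 pairs of a named gene and a comparison in which its difference exceeded its SE, only Usp18 between nanocapsule and PBS lungs turned its sign. The log2 difference of Usp18, nanocapsule minus PBS, ran from -0.48 to 0.020 with single libraries left out (0.020 without PBS 3) and was 0.020 without PBS 3 and anti-PD1 2 together. Calls of such pairs were gained 23 times, each between nanocapsule and anti-PD1 lungs. Counts over all genes moved most, and the cause was not tested. For anti-PD1 against PBS, 1 gene was called, and 0 with a pseudocount of 0.1, with median-of-ratios scaling, without S100a8, S100a9 and mitochondrial genes, without the intensity trend, and without PBS 3 and anti-PD1 2. Array weights, which weight libraries by their fit, gave 279, and single libraries left out 0 to 3. For nanocapsules against PBS, 1 was called, and 2 with pseudocounts of 0.1 or 0.5 or no trend, 0 without a filter or without PBS 3 and anti-PD1 2, 3 at a mean of at least 5 TPM, 4 with median-of-ratios scaling or without S100a8, S100a9 and mitochondrial genes, 9 with array weights, and 0 to 4 with single libraries left out. Between nanocapsule and anti-PD1 lungs, 14 were called, and 3 without a filter, 197 at a mean of at least 5 TPM, 22 with median-of-ratios scaling, 79 without S100a8, S100a9 and mitochondrial genes, 2 without the trend, 3421 with array weights, 476 with only these groups in the fit, 526 without PBS 3 and anti-PD1 2, and 0 to 962 with single libraries left out (962 without PBS 2 and 188 without PBS 3).

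Members called between the treated groups, 0, became 2 with array weights, 1 with only these groups, and 0 to 1 with single libraries left out. Members with a lower mean were 21 for nanocapsules against PBS with array weights. Between the treated groups they were 5 with median-of-ratios scaling, 9 with array weights, 8 without PBS 3 and anti-PD1 2, and 8 to 22 with single libraries left out. Lower members at an unadjusted p under 0.05 ranged from 2 to 18 for anti-PD1 against PBS with single libraries left out, and higher ones were 1 with array weights, 1 without PBS 3 and anti-PD1 2 and 0 to 1 with single libraries left out. For nanocapsules against PBS the lower ones were 0 with median-of-ratios scaling, 1 with array weights and 1 to 17 with single libraries left out, and higher ones 2 with array weights and 0 to 1 with single libraries left out. Between the treated groups the lower ones were 0 with median-of-ratios scaling, without S100a8, S100a9 and mitochondrial genes and without the trend, 2 with array weights or only these groups, and 0 to 2 with single libraries left out, and the higher ones 6, 7 and 9 with median-of-ratios scaling, array weights and without PBS 3 and anti-PD1 2, and 2 to 9 with single libraries left out. Libraries with the same replicate number had correlations of their deviations from -0.182 to 0.279 over all tested genes. Not every pair was above 0.1, so the numbers were not taken to pair the samples, although the 2 highest of all correlations between groups were of equal numbers (PBS 2 with anti-PD1 2 and PBS 3 with anti-PD1 3). Not every library correlated best with its own number, since nanocapsule 1 did so with anti-PD1 3 (0.225). With the replicate block, 5 genes were called for nanocapsules against PBS and 1095 between the treated groups, 1 member (Ifitm3, adjusted p = 0.0380 by limma) was called between the treated groups, and the members at an unadjusted p under 0.05 were 4 lower for nanocapsules against PBS and 0 lower between the treated groups.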

Other observations

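The genes outside all lists whose levels were most like the member index over the 9 lungs were Irgm1 (Pearson correlation 0.92), Irgm2 (0.90), Zfp949 (0.90), Sdr39u1 (0.88) and Gm9939 (0.88). Irgm1 and Irgm2 encode GTPases that interferon gamma induces. Irgm1 was at 30.6, 35.5 and 44.7 TPM in PBS, 31.2, 40.2 and 29.3 TPM in anti-PD1 and 37.2, 30.1 and 32.5 TPM in nanocapsule lungs, with PBS 3 and anti-PD1 2 highest in their groups. These genes were picked for their likeness, so the correlations are a description over 9 libraries.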
